A study of Mus musculus with 2 samples.

Results

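Cluster 9 of the deposited endothelial class is described here under the name of arterial endothelial cells, the cells that line the inside of the aorta. Its members are the cells that the authors' metadata put both in the class EC and in cluster number 9, with each barcode counted 1 time, and there were 383 of them among 7917 cells. The double knockout library (EC-iDKO_Apoe_KO) held 287 of its 5489 cells in the cluster, and the Apoe knockout library (Apoe_KO) held 96 of its 2428 cells. The name fits 72 of these 96 cells less well, those with 2 or more UMIs of leukocyte genes. Endothelial core genes took 2.58 of every 1000 UMIs in the 72 and 9.05 in the other 24. The collagen gene Col1a1 was found in 94.4% of the 72 and 50% of the other 24. Both libraries came from aortas of mice on a western diet for 12 weeks, so loss of Apoe and the diet were shared by both groups. The double knockout mice carried in addition the inducible endothelial knockout of 2 genes that the labels write as EC-iDKO. From knowledge of this mouse line, those genes are Epn1 and Epn2, which encode epsins, adaptors of clathrin-coated pits. The sources used here do not give the Cre driver, the inducing agent, the age or how many mice were pooled in a library. The protocol names CD31 microbeads while the cell type label reads all cells, so the share of endothelial cells can depend on the beads. The libraries differed in depth, with a median of 769 UMIs per cell in the double knockout and 3770 in the Apoe knockout, and shared 5 cell barcodes; the cells of cluster 9 also differed in the leukocyte transcripts they carried, as described before the genotype comparison.

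Endothelium forms the barrier between blood and the vessel wall. Arterial endothelial cells are known for connexins that couple them, for Notch signalling that keeps arterial identity, and for secreted factors that set the tone of the smooth muscle beneath. In Apoe-deficient mice on a fatty diet, aortic endothelium lies over growing plaques, displays adhesion molecules that catch leukocytes, and can take on traits of mesenchymal cells. Each level given here is the CPM, or the UMIs of a gene per 1000000 UMIs of the cells summed. With 1 library per genotype there was no replicate and no test, so the values in parentheses are 95% intervals that cover counting error only. A gene was called higher or lower when its ratio was at least 1.5 in either direction and its interval did not hold 1.

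The sequences just upstream of a RefSeq start of 4 of the cluster's marker genes are shown because they are the endothelial and arterial genes by which the cluster was labelled. Each is the 250 bases before a RefSeq start of the gene on the coding strand of GRCm38.p6, at chrX:164258194-164258443 (minus strand) for Bmx, chr3:97032152-97032401 (plus) for Gja5, chr6:87388936-87389185 (minus) for Gkn3 and chr4:94739039-94739288 (plus) for Tek. For Tek that start lies within the annotated gene, which begins at chr4:94739086, so part of the Tek window is inside the gene. Capitals mark GGAA and its reverse complement TTCC, the core letters of the sites that ETS factors bind; a match is a description of the letters and not a binding site.
Bmx: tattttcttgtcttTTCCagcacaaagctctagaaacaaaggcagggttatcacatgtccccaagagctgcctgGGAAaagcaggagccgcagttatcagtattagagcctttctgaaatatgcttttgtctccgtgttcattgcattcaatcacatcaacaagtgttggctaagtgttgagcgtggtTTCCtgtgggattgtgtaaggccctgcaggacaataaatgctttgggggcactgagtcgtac
Gja5: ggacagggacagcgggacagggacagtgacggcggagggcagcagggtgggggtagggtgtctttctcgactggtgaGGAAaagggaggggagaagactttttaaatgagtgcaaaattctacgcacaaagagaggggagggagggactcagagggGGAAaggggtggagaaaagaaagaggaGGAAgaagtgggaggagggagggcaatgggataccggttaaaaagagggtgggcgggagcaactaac
Gkn3: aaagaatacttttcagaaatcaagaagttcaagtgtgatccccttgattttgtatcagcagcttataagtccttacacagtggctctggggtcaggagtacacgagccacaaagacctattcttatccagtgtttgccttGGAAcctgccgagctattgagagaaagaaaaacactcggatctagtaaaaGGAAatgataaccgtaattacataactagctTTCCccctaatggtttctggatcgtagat
Tek: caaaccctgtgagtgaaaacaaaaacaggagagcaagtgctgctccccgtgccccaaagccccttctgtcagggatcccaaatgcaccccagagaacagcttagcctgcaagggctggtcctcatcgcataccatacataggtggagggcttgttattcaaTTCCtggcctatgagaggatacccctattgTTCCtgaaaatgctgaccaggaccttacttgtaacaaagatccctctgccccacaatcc
The Bmx, Gja5 and Gkn3 windows each held 3 matches and the Tek window held 2. The match nearest the start used for the window began 62 bases before that start in Bmx, 67 in Gja5, 29 in Gkn3 and 59 in Tek. The same letters occurred in 30698 of the 32851 RefSeq windows of this length (93.4%), and in 10 of the 12 leading genes of the cluster that had an entry.

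Among clusters of at least 20 cells the marker genes were highest in cluster 9 in both libraries, Tek excepted. The smaller endothelial clusters 19 and 20 came near it for some of them. Vwf encodes the platelet-binding glycoprotein that endothelial cells store and secrete, and lies at chr6:125552948-125686679 of GRCm38.p6. It reached 358 CPM in double knockout and 146 CPM in Apoe knockout cells of cluster 9. The next highest cluster was cluster 13 in the double knockout library, at 20.5 CPM, and cluster 20 in the Apoe knockout library, at 35.4 CPM. Bmx, a cytoplasmic tyrosine kinase of arterial endothelium, stood at 163 CPM in double knockout and 142 CPM in Apoe knockout cells. Gja5, an arterial connexin, stood at 95.4 CPM in double knockout and 101 CPM in Apoe knockout cells. Gkn3, a gastrokine used as an arterial marker in mice, stood at 139 CPM in double knockout and 93.6 CPM in Apoe knockout cells. Among clusters of at least 20 cells, cluster 9 was first for these 4 genes and for Egfl7, a secreted endothelial protein, in both libraries. In the double knockout library the next cluster was close for a pair of them: Bmx reached 126 CPM (67.1 to 216) in cluster 19, and Egfl7, at 441 CPM in cluster 9, reached 375 CPM (187 to 671) in cluster 20. Cluster 19 of the Apoe knockout library was not ranked, as it had 9 cells. Its 10 Egfl7 UMIs gave 316 CPM (152 to 581), above the 191 CPM of cluster 9 in that library. Tek, the angiopoietin receptor, was the exception: cluster 9 was first in the Apoe knockout library at 172 CPM, but its 195 CPM in the double knockout library came second to the 281 CPM of cluster 19. These 6 genes were also the markers proposed for the label, and the clusters were built from counts that include them, so their levels describe the cluster and do not test its name.

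**Figure D1:**
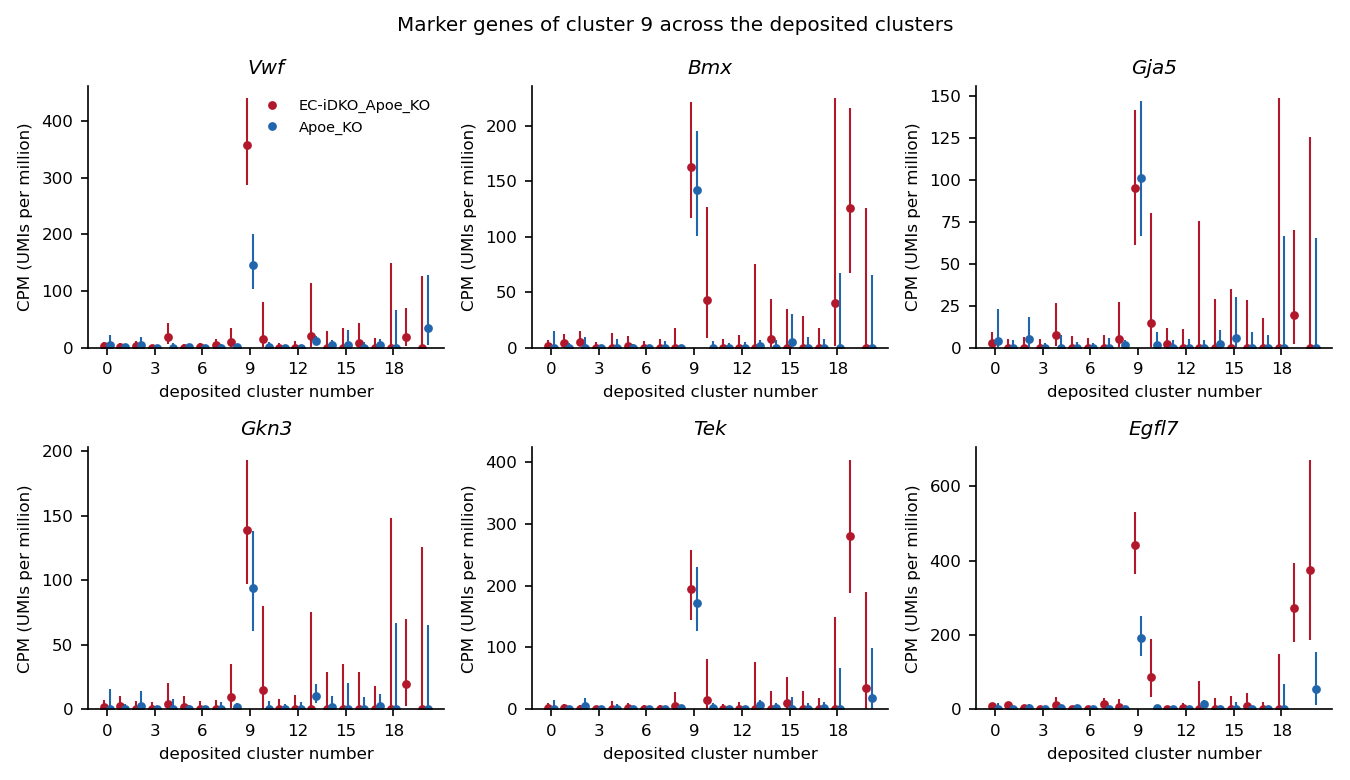
CPM of 6 marker genes (y axes) in each deposited cluster of at least 20 cells (x axes), with exact 95% counting intervals as vertical lines, red for EC-iDKO_Apoe_KO and blue for Apoe_KO. Cluster 9 is the highest in all panels and libraries except for Tek, where cluster 19 of EC-iDKO_Apoe_KO stands at 281 CPM against 195 CPM in cluster 9. The intervals of other clusters overlap those of cluster 9 in places. In EC-iDKO_Apoe_KO these include cluster 19 for Bmx, clusters 19 and 20 for Egfl7, and clusters of few cells such as 18 and 20 for Gja5 and Gkn3.

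Against all other cells of the same library, 202 of 4109 genes with at least 20 UMIs in the cluster were higher in cluster 9 at least 2-fold in both libraries (4.92%). The clusters were made from these genes, so this is a description of the cluster and not a test. The 25 leading genes were ranked by the lower of the 2 ratios and included the adrenomedullin co-receptor Ramp2, the adhesion molecule Icam2, the Wnt modulator Sfrp1, the phosphatase Ptprb, the sphingosine phosphate receptor S1pr1 and the endothelin gene Edn1. Sfrp1 was 77.9-fold (51.7 to 120) above the other cells in the double knockout library and 36.5-fold (28.1 to 47.4) in the Apoe knockout library. Ramp2 was 44.0-fold above them in the double knockout library and 59.6-fold in the Apoe knockout library. Cytl1, a cytokine-like secreted protein, was 53.4-fold above the other double knockout cells but 5.53-fold above the other Apoe knockout cells. In the Apoe knockout library Cytl1 was higher still in cluster 10, with 3981 CPM against 1817 CPM in cluster 9.

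**Figure D2:**
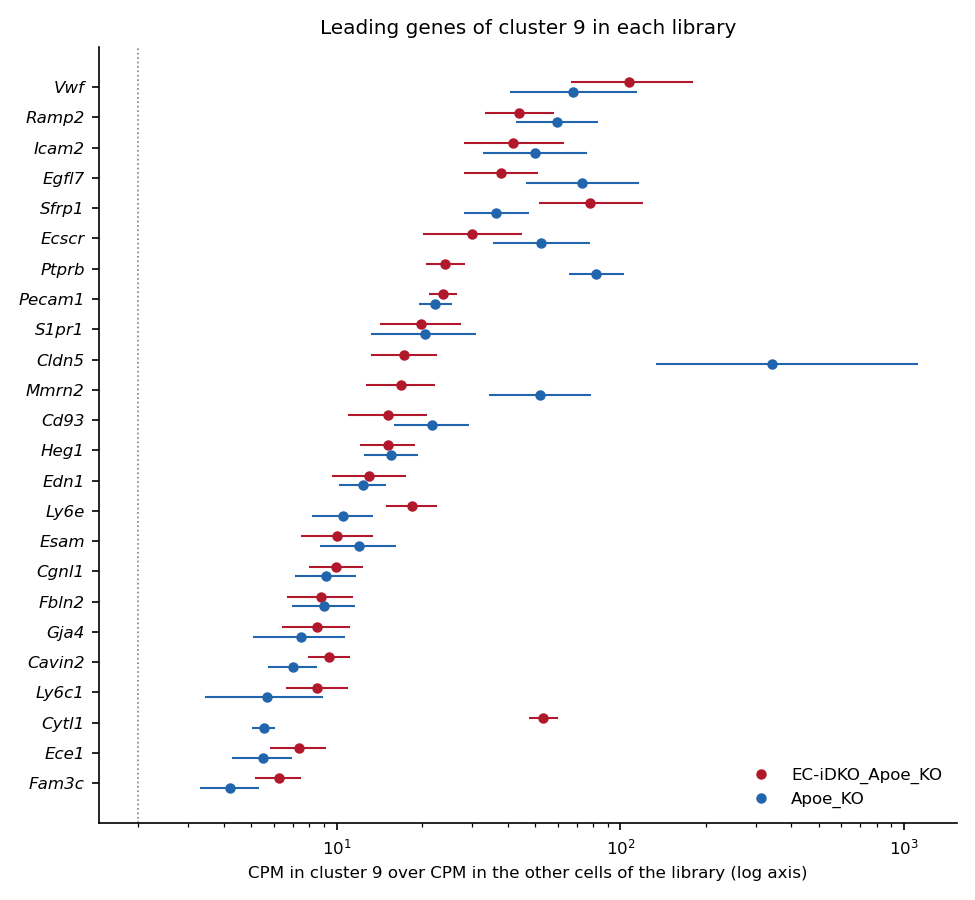
Ratio of CPM in cluster 9 to CPM in the other cells of the same library for 24 of the 25 leading genes (x axis, log scale), red for EC-iDKO_Apoe_KO and blue for Apoe_KO, with exact 95% counting intervals as lines. Vwf leads at 107 in EC-iDKO_Apoe_KO and 68.0 in Apoe_KO; the dotted line marks the 2-fold rule.

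The endothelial core, arterial and leukocyte adhesion lists had most of their members above the other cells. In the endothelial core list 20 of 24 measured members were at least 2-fold above the other cells in both libraries, in the arterial list 12 of 20, and in the leukocyte adhesion list 7 of 9. Of the capillary and lipid uptake list none of 3 measured members was, and Cd36 and Gpihbp1, the fatty acid translocase and the lipase anchor of capillaries, had 0 UMIs. No gene reached 20 UMIs among the 3 lymphatic genes, the 11 T and NK cell genes, the 7 adipocyte genes and the 1 B cell gene that had a value, and no mesothelial gene had one, so that list was not analysed here. Smooth muscle transcripts were abundant in the cluster all the same. Acta2, smooth muscle actin, stood at 12858 CPM in double knockout and 14113 CPM in Apoe knockout cells of cluster 9. The smooth muscle class stood at 22985 CPM in the double knockout and 23326 CPM in the Apoe knockout library. The whole smooth muscle list summed to 35917 CPM in double knockout and 38160 CPM in Apoe knockout cells of cluster 9. In the other cells of each library it summed to 58959 CPM in the double knockout and 49432 CPM in the Apoe knockout.

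Cluster 19, the larger of the other clusters of the endothelial class, shared Pecam1 with cluster 9 but differed in secreted, muscle and adhesion genes. The comparison uses the double knockout library, where cluster 19 had 67 cells; the Apoe knockout library had 9. Cluster 9 was above cluster 19 for Sfrp1 38.9-fold (6.82 to 1554), for Vwf 18.4-fold (4.96 to 155) and for Cytl1 2.80-fold (2.32 to 3.40). For Acta2 the cluster 9 level was 12858 CPM and the cluster 19 level 2783 CPM. Cluster 19 was higher for other endothelial genes: the fatty acid carrier Fabp4 had 191 CPM in cluster 9 against 960 CPM in cluster 19, the semaphorin Sema3g 35.8 against 882 CPM, the Notch ligand Jag1 67.5 against 756 CPM and the adhesion molecule Icam1 417 against 2715 CPM. Pecam1, the gene for CD31, did not meet the rule between them, with 2285 CPM in cluster 9 against 2337 CPM in cluster 19. The authors' coarser groupings kept the cells together: all 383 fell in a group of 384 cells at a resolution of 0.4, and 380 of them in a group of 386 cells at 0.2. At 0.1, 374 of them were in a group of 728 cells with all 76 cells of cluster 19, 37 cells of cluster 20 and 192 cells of cluster 13.

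The cells of the 2 genotypes differed in depth and in the transcripts of leukocytes that they carried, and both bear on every comparison below. The double knockout cells of cluster 9 had a median of 711 UMIs (range 499 to 9526) and 251667 in all, and the Apoe knockout cells a median of 2133 UMIs (596 to 21998) and 266983 in all. The leukocyte lists (macrophage and T and NK cell genes together) gave 2 or more UMIs in 1 of the 287 double knockout cells (0.348%, 0.00882 to 1.93%). The same count was 72 of the 96 Apoe knockout cells (75%, 65.1 to 83.3%). In the smooth muscle class, which should lack these genes, the share was 0.182% in double knockout cells (median 771 UMIs) and 12.4% in Apoe knockout cells (median 4856 UMIs). After each cell was thinned to 500 UMIs, 3.15% of double knockout and 58.3% of Apoe knockout cells of cluster 9 held a leukocyte UMI, against 1.23% of double knockout and 8.92% of Apoe knockout cells of the smooth muscle class. All 8 macrophage genes measured were lower in double knockout cells. The whole list held 13 UMIs there and 711 in Apoe knockout cells. A gene thus reached the minimum of 20 UMIs only through the Apoe knockout cells, and the count of 8 is no test. Lyz2, C1qb and Ctss, a lysozyme, a complement chain and a lysosomal protease of macrophages, had 0 UMIs in double knockout cells. The list summed to 51.7 CPM in double knockout and 2663 CPM in Apoe knockout cells. How doublets were treated is not stated, and no caller was run.

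Endothelial and leukocyte transcripts did not go together in the Apoe knockout cells. Endothelial core genes took 8.31 of every 1000 UMIs in double knockout cells. In Apoe knockout cells they took 2.58 where a cell held 2 or more leukocyte UMIs (72 cells) and 9.05 where it held fewer (24 cells). At 0 leukocyte UMIs the value was 11.04 (18 cells), at 1 it was 4.16 (6 cells), at 2 to 4 it was 2.25 (15 cells), at 5 to 9 it was 2.52 (31 cells) and at 10 or more it was 2.89 (26 cells). Other cells of the libraries stood at 0.626 in the double knockout and 0.375 in the Apoe knockout. Cells with a UMI of any of the 6 markers were 52.3% of double knockout cells, 51.4% of Apoe knockout cells with 2 or more leukocyte UMIs and 83.3% of those with fewer. These shares are at unlike depth, with medians of 711, 2168 and 2055 UMIs in that order. The thinned shares that follow do not split the Apoe knockout cells. Thinned to 500 UMIs, the shares were 41.3% in double knockout and 31.2% in Apoe knockout cells of cluster 9, with 0.977% of double knockout and 0.260% of Apoe knockout cells in the smooth muscle class.

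**Figure D3:**
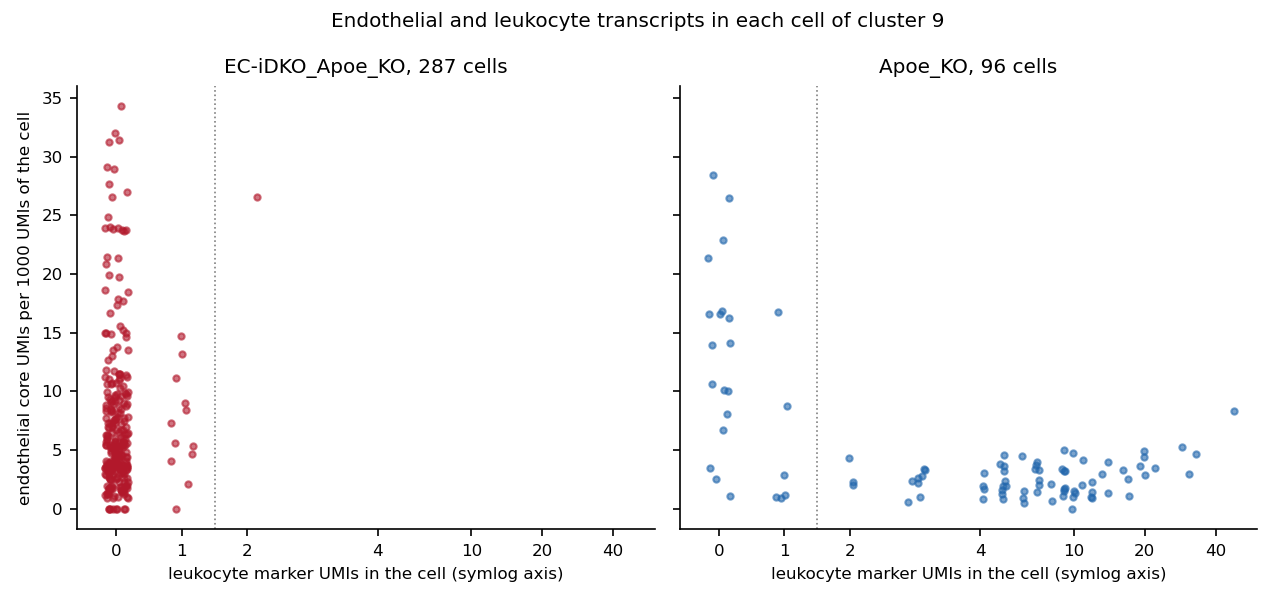
Each point is a cell of cluster 9, EC-iDKO_Apoe_KO on the left and Apoe_KO on the right; the x axis gives its leukocyte marker UMIs (symlog scale) and the y axis its endothelial core UMIs per 1000 UMIs, with the dotted line between 1 and 2 leukocyte UMIs. Of the EC-iDKO_Apoe_KO cells 1 lies right of the line, and of the Apoe_KO cells 72 do, where endothelial core genes take 2.58 of every 1000 UMIs.

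Within the Apoe knockout library, 341 of 4109 genes were higher (8.3%) and 395 lower (9.61%) in the 72 cells with 2 or more leukocyte UMIs than in the 24 with fewer. Of 24 endothelial core genes 18 were lower and none higher, and of 12 interferon and MHC class I genes 9 were lower and none higher. Of 18 fibrillar matrix genes 7 were higher and 3 lower, of 16 immediate early genes 9 were higher and none lower, and of 13 heat shock genes 7 were higher and none lower. Pecam1 stood at 677 CPM in cells with 2 or more leukocyte UMIs and 2207 CPM in those with fewer. Col1a1, a chain of the main fibrillar collagen, stood at 2141 CPM in cells with 2 or more leukocyte UMIs and 314 CPM in those with fewer. The gene lists below are therefore given over all cells and over cells with under 2 leukocyte UMIs, of which there were 286 in the double knockout and 24 in the Apoe knockout. This limit left out 1 double knockout and 72 Apoe knockout cells, so it changed mainly 1 side of each ratio. A value of a single gene is over all cells where nothing else is said.

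Over all cells of cluster 9, 296 of 4109 genes were higher in the double knockout (7.2%) and 361 lower (8.79%), and the median log2 ratio over these genes was -0.02. Over cells with under 2 leukocyte UMIs, 228 were higher (5.55%) and 310 lower (7.54%), the median being -0.00. With the cells over 5000 UMIs left out as well, 148 were higher (3.6%) and 260 lower (6.33%). The list counts that follow are to be read beside these shares over all genes. Of the 296 higher genes 112 met the rule again over cells with under 2 leukocyte UMIs and none was lower. Of the 361 lower genes 152 met it again and 3 were higher. There were 97 lower genes that were also higher in the Apoe knockout cells with 2 or more leukocyte UMIs than in those with fewer. In 15 of the lower genes at least 50% of the Apoe knockout UMIs sat in 1 cell, and this held in the double knockout for 1 of the higher genes. Some calls rested on 1 cell. Of 45 genes named here that met the rule over all cells, Ccl2, Cgnl1, Clta, Edn1, Icam1, Notch1 and S100a13 no longer did once the cell with most of the gene's UMIs in 1 library was left out, and Ctla2a turned to the other direction. Over cells with under 2 leukocyte UMIs 12 of 31 lost it: Bmx, Cav1, Ccl2, Cdh5, Col4a1, Ctla2a, Cxcl1, Eln, Emcn, Icam1, Lum and Tek.

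**Figure D4:**
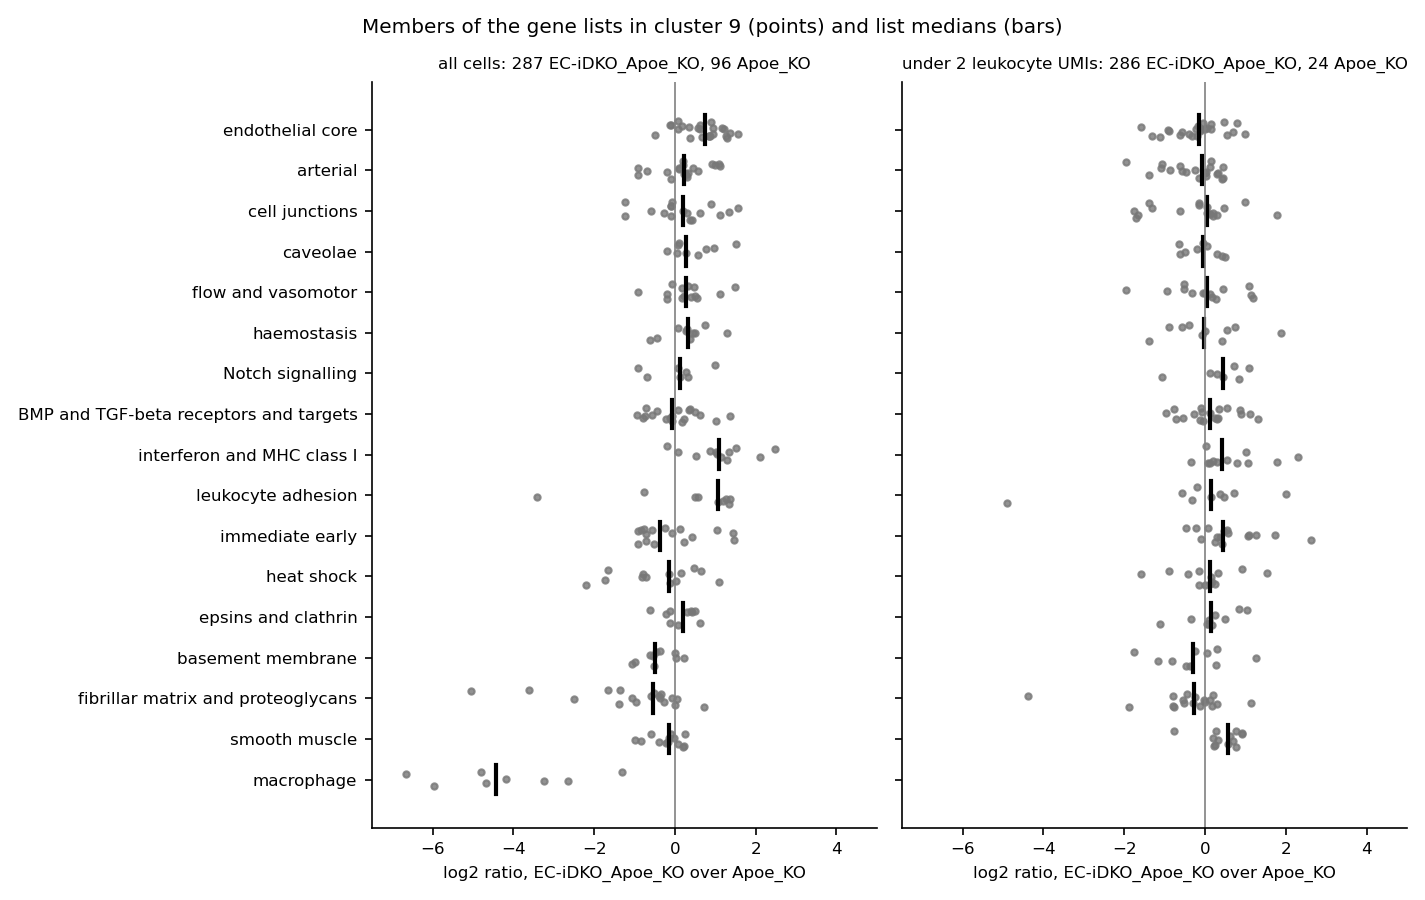
Each point is a measured gene of a list and each bar the median of the list; the x axis is the log2 ratio of EC-iDKO_Apoe_KO over Apoe_KO, over all cells of cluster 9 on the left and over cells with under 2 leukocyte UMIs on the right, where macrophage genes are not drawn; a gene with 0 UMIs in a group is set at 3 UMIs. The endothelial core median is 0.75 on the left and -0.14 on the right, and the interferon and MHC class I median is 1.09 on the left and 0.42 on the right.

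Endothelial identity genes were higher in the double knockout over all cells of cluster 9, and not where leukocyte UMIs were few. In the endothelial core list 12 of 24 genes were higher and none lower, with a median log2 ratio of 0.75. Egfl7 stood at 441 CPM in double knockout and 191 CPM in Apoe knockout cells (2.31-fold, 1.64 to 3.28). Pecam1 stood at 2285 CPM in double knockout and 1225 CPM in Apoe knockout cells (1.87-fold, 1.63 to 2.14). The difference was not particular to cluster 9, since the median log2 ratio of this list was 1.17 in the smooth muscle class. The cluster 9 ratio was above that of the class for 2 core genes and below it for 5. The limit of 2 leukocyte UMIs left out Apoe knockout cells that were poor in core genes and hardly touched the double knockout cells. Per cell, the median was 5.42 core UMIs per 1000 over all double knockout cells. It was 2.37 in the 72 Apoe knockout cells left out and 10.4 in the 24 kept. Over cells with under 2 leukocyte UMIs the median log2 ratio was -0.14, with 1 core gene higher and 4 lower. The higher gene was Cldn5, the claudin of endothelial tight junctions (1.99-fold, 1.20 to 3.51). The lower genes were the adherens junction cadherin Cdh5, Ecscr, the sialomucin Emcn, and Tek (0.54-fold, 0.34 to 0.86). Of these, only Ecscr kept its call without 1 Apoe knockout cell. For Emcn, 26 of the 30 Apoe knockout UMIs were in the cell of 21998 UMIs, and without it the ratio was 1.91-fold (0.663 to 7.53). For Cdh5 the same cell held 20 of 42 UMIs, and without it the ratio was 0.588-fold (0.345 to 1.03). Without the cells over 5000 UMIs as well, 1 in the double knockout and 3 in the Apoe knockout, which leaves 21 Apoe knockout cells, none of 24 was higher, 9 were lower and the median was -0.62.

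Arterial genes went both ways over all cells, and none was higher where leukocyte UMIs were few. In the arterial list 4 of 20 were higher, 2 lower and the median was 0.24. The connexin Gja4 stood at 282 CPM in double knockout and 131 CPM in Apoe knockout cells (2.15-fold, 1.42 to 3.32), and Notch1, the arterial Notch receptor, at 127 CPM in double knockout and 63.7 CPM in Apoe knockout cells (2.00-fold, 1.08 to 3.83), which was 1.69-fold (0.881 to 3.31) without 1 double knockout cell. Cytl1 stood at 3449 CPM in double knockout and 1817 CPM in Apoe knockout cells (1.90-fold, 1.70 to 2.13). None of these met the rule over cells with under 2 leukocyte UMIs, where Cytl1 was at 0.996-fold (0.876 to 1.13). Gja5 and Bmx did not meet the rule over all cells, at 0.943-fold (0.521 to 1.70) and 1.14-fold (0.718 to 1.83). Over cells with under 2 leukocyte UMIs both were lower, Gja5 at 0.382-fold (0.208 to 0.702) and Bmx at 0.545-fold (0.328 to 0.918), and 5 of 20 arterial genes were lower and none higher, with a median of -0.08. Without 1 Apoe knockout cell that held 7 of its 28 UMIs there, Bmx was at 0.694-fold, with an interval that held 1. In cells with under 2 leukocyte UMIs and at most 5000 UMIs, 9 of 20 arterial genes were lower and none higher. The median there was -0.73, and that set held 21 Apoe knockout cells. Edn1, which encodes the vasoconstrictor endothelin, was lower over all cells, by a call that rested on 1 cell, and where leukocyte UMIs were few. It stood at 270 CPM in double knockout and 513 CPM in Apoe knockout cells (0.527-fold, 0.388 to 0.709), and was at 0.256-fold (0.184 to 0.354) over cells with few leukocyte UMIs. The Apoe knockout cell of 21998 UMIs held 61 of the 137 Edn1 UMIs of that library's cluster, and without it the ratio was 0.871-fold (0.619 to 1.22) over all cells and 0.531-fold (0.348 to 0.821) over cells with few leukocyte UMIs. Over cells with at least 1000 UMIs and little mitochondrial RNA, 58 in the double knockout and 93 in the Apoe knockout, its log2 ratio was 0.09. Edn1 was also lower in the smooth muscle class, at 17.6 CPM in double knockout and 36.2 CPM in Apoe knockout cells. In the Notch list, which shares members such as Notch1 and Jag1 with the arterial list, 1 of 7 genes was higher and none lower, with a median of 0.14, and over cells with few leukocyte UMIs none was called and the median was 0.44.

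Genes that answer to blood flow gave 2 higher and 1 lower of 14, with a median of 0.27, and over cells with few leukocyte UMIs 2 higher, 2 lower and a median of 0.06. The shares over all genes were 7.2% higher and 8.79% lower, or 5.55% and 7.54% over cells with few leukocyte UMIs. Ace, the angiotensin-converting enzyme, stood at 306 CPM in double knockout and 109 CPM in Apoe knockout cells (2.82-fold, 1.82 to 4.48), and was 2.26-fold (1.25 to 4.44) over cells with few leukocyte UMIs. Ace was higher in the smooth muscle class too, at 124 CPM in double knockout and 58.6 CPM in Apoe knockout cells. S1pr1 stood at 270 CPM in double knockout and 124 CPM in Apoe knockout cells (2.19-fold, 1.42 to 3.42) and was at 1.37-fold (0.812 to 2.41) over cells with few leukocyte UMIs. The flow-induced transcription factors Klf2 and Klf4 did not meet the rule, at 0.949-fold (0.638 to 1.41) and 0.866-fold (0.657 to 1.14). Ptgis, which makes prostacyclin, was at 1.12-fold (0.917 to 1.37). In the haemostasis list Vwf and the ectonucleotidase Entpd1 were higher among 10 genes, none was lower and the median was 0.34. Where leukocyte UMIs were few, 1 of them was higher, 2 were lower and the median was -0.04; Vwf was at 1.46-fold (0.915 to 2.42) there.

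Among junction genes 5 of 17 were higher, 1 lower and the median was 0.19. Cldn5 stood at 385 CPM in double knockout and 131 CPM in Apoe knockout cells (2.94-fold, 1.98 to 4.46), and the paracingulin gene Cgnl1 at 453 CPM in double knockout and 296 CPM in Apoe knockout cells (1.53-fold, 1.14 to 2.07). Without the double knockout cell of 9526 UMIs Cgnl1 was at 1.42-fold (1.05 to 1.93). Cdh5 did not meet the rule over all cells, at 0.934-fold (0.608 to 1.43). Of 9 caveolar genes, those of the membrane pits common in endothelium, 3 were higher and none lower, with a median of 0.27. Cavin2, a coat protein of caveolae, stood at 735 CPM in double knockout and 431 CPM in Apoe knockout cells (1.71-fold, 1.34 to 2.17). Cav1, the pits' main membrane protein, was at 1.05-fold (0.847 to 1.31). Where leukocyte UMIs were few, the junction genes gave 2 higher and 5 lower and a median of 0.05. Of the caveolar genes none was higher and 1 was lower, with a median of -0.05.

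Of the interferon-responsive and MHC class I genes 9 of 12 were higher and none lower, with a median of 1.09. H2-K1, a class I heavy chain, stood at 834 CPM in double knockout and 412 CPM in Apoe knockout cells (2.03-fold, 1.60 to 2.57). Irf1, an interferon-induced transcription factor, stood at 254 CPM in double knockout and 101 CPM in Apoe knockout cells (2.51-fold, 1.58 to 4.10). B2m, the class I light chain, did not meet the rule, at 1.05-fold (0.824 to 1.35). The median of this list was 0.72 in the smooth muscle class. The cluster 9 ratio was above that of the class for none of these genes and below it for 1. Over cells with few leukocyte UMIs 4 of 12 were higher and none lower, with a median of 0.42; these were Ifitm3, Irf1 and the surface proteins Ly6a and Ly6c1. Ly6a stood at 715 CPM in double knockout cells, at 11.7 CPM in Apoe knockout cells with 2 or more leukocyte UMIs and at 335 CPM in those with fewer. In 1 Apoe knockout cell of 21998 UMIs there were 25 of the 34 Ly6a UMIs of that library's cluster, and without it and the other cells over 5000 UMIs the Ly6a ratio over cells with few leukocyte UMIs was 4.65-fold. That ratio rests on few cells, since 5 of the 21 Apoe knockout cells left had a Ly6a UMI. In that smaller set of 285 double knockout and 21 Apoe knockout cells 2 of 12 genes of the list were higher, 1 was lower and the median was -0.12.

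In the leukocyte adhesion list 5 of 9 genes were higher, 2 lower and the median was 1.08. The higher genes were the integrin ligands Icam1 and Vcam1, the sialomucins Cd34 and Podxl, and Jam2 of the junctions. The median of this list was 1.13 in the smooth muscle class. The cluster 9 ratio was above that of the class for none of the list and below it for 2. In cells with few leukocyte UMIs 2 of the 9 were higher, 1 was lower and the median was 0.16; there Icam1 was at 1.65-fold (1.05 to 2.70) and Vcam1 at 1.29-fold (0.938 to 1.79). In 1 double knockout cell of 9526 UMIs there were 41 of the 105 Icam1 UMIs of that library's cluster; without it the ratio was 1.44-fold (0.977 to 2.13) over all cells and 1.04-fold (0.642 to 1.74) over cells with few leukocyte UMIs. With the cells over 5000 UMIs left out too, Icam1 was at 0.776-fold, none of the 9 genes met the rule and the median was -0.44. Selp, the selectin of platelets and endothelium, did not meet the rule, at 147 CPM in double knockout and 105 CPM in Apoe knockout cells, but did so without the Apoe knockout cell of 21998 UMIs, which held 11 of that library's 28 Selp UMIs (2.12-fold, 1.16 to 4.01). The chemokine Cxcl1 stood at 167 CPM in double knockout cells, at 420 CPM in Apoe knockout cells with 2 or more leukocyte UMIs and at 41.8 CPM in those with fewer. Its ratio was thus 0.586-fold (0.392 to 0.866) over all cells and 4.01-fold (1.45 to 15.4) over cells with few leukocyte UMIs. The same cell of 9526 UMIs held 31 of the 42 double knockout Cxcl1 UMIs, and without it the ratio was 0.160-fold (0.0764 to 0.302) over all cells and 1.09-fold (0.323 to 4.70) over cells with few leukocyte UMIs. Ccl2, another chemokine, had 0 UMIs in double knockout cells, and its 34 UMIs in Apoe knockout cells were all in 1 cell.

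More genes of the fibrillar matrix were lower than higher in the double knockout over all cells, and fewer were lower where leukocyte UMIs were few. In the fibrillar matrix list 1 of 18 genes was higher, 8 were lower and the median was -0.55. Col1a2 stood at 469 CPM in double knockout and 1202 CPM in Apoe knockout cells (0.390-fold, 0.313 to 0.483). Over cells with few leukocyte UMIs 1 of 18 was higher, 4 were lower and the median was -0.27. There Col1a1 was at 0.840-fold (0.538 to 1.34), Col1a2 at 0.819-fold (0.590 to 1.15) and Eln, elastin, at 0.588-fold (0.481 to 0.721), or 0.698-fold (0.563 to 0.869) without 1 Apoe knockout cell. The proteoglycan genes Dcn and Lum were also lower in those cells, where Lum had 7 Apoe knockout UMIs and lost the call without 1 cell that held 2 of them. Dcn stood at 95.4 CPM in double knockout cells, at 712 CPM in Apoe knockout cells with 2 or more leukocyte UMIs and at 1998 CPM in those with fewer, where 158 UMIs sat in the cell of 21998 UMIs. In the smooth muscle class Dcn stood at 19.6 CPM in double knockout and 108 CPM in Apoe knockout cells. The fibroblast list, which holds both, had none of 5 genes higher and 2 lower, as it did over cells with few leukocyte UMIs, and summed to 699 CPM in double knockout and 2382 CPM in Apoe knockout cells. Whether the fibroblast transcripts bear on the matrix genes was not tested.

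Basement membrane genes gave none of 10 higher, 2 lower and a median of -0.50. Over cells with few leukocyte UMIs 3 were lower and the median was -0.31, and with the cells over 5000 UMIs left out as well 1 was lower and the median was 0.56. Sparc, a collagen-binding matricellular protein of the basement membrane, was lower on both counts. It stood at 1724 CPM in double knockout cells, at 3449 CPM in Apoe knockout cells with 2 or more leukocyte UMIs and at 3901 CPM in those with fewer, so that its ratio was 0.478-fold (0.425 to 0.535) over all cells and 0.442-fold (0.384 to 0.509) over cells with few leukocyte UMIs. It was at 0.716-fold in the smooth muscle class. Col4a1, a chain of basement membrane collagen, was at 0.768-fold (0.598 to 0.985) over all cells and at 0.568-fold (0.421 to 0.770) over cells with few leukocyte UMIs; without the cell of 21998 UMIs, which held 50 of its 76 Apoe knockout UMIs there, it was at 1.28-fold (0.828 to 2.04).

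**Figure D5:**
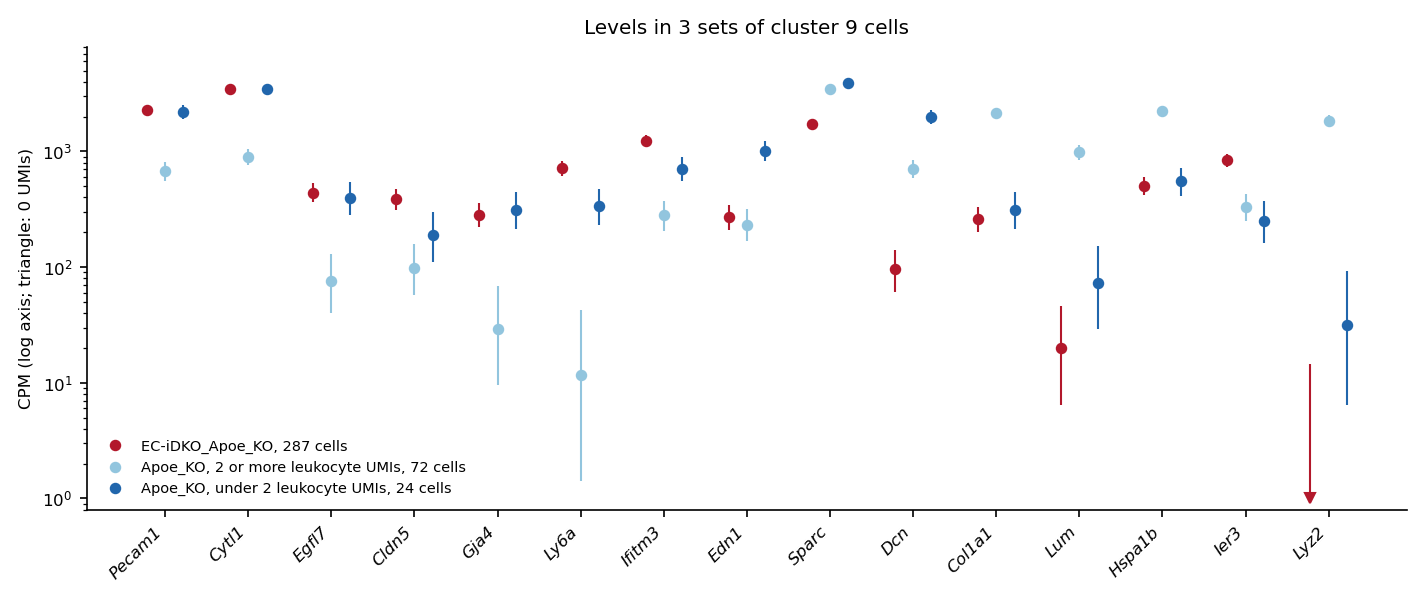
CPM (y axis, log scale) of 15 genes in EC-iDKO_Apoe_KO cells (red, 287 cells), Apoe_KO cells with 2 or more leukocyte UMIs (light blue, 72) and Apoe_KO cells with fewer (dark blue, 24), with exact 95% counting intervals; a triangle marks 0 UMIs. Pecam1, Cytl1 and Egfl7 of the EC-iDKO_Apoe_KO cells lie at the dark blue points, whereas Ier3 is above and Sparc below both Apoe_KO sets.

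Genes of the mesenchymal transition gave none of 13 higher, 5 lower and a median of -0.39, and over cells with few leukocyte UMIs 1 higher, 1 lower and a median of 0.14. Smooth muscle genes gave none of 13 higher and 3 lower over all cells, with a median of -0.13, and 5 higher and 1 lower, the median being 0.58, over cells with few leukocyte UMIs. Tagln, an actin-binding protein of smooth muscle, stood at 9242 CPM in double knockout cells, at 10527 CPM in Apoe knockout cells with 2 or more leukocyte UMIs and at 5449 CPM in those with fewer. Among receptors, ligands and targets of the BMP and TGF-beta pathway 3 of 19 were higher, 3 lower and the median was -0.08, against 1 higher, 1 lower and a median of 0.11 over cells with few leukocyte UMIs. Id1, a target of BMP signalling, was higher over all cells (2.03-fold, 1.45 to 2.86) and over cells with few leukocyte UMIs (1.82-fold, 1.14 to 3.03). Id2 was lower over all cells (0.596-fold, 0.441 to 0.800) and at 0.961-fold (0.617 to 1.53) over cells with few leukocyte UMIs, and Tgfb2, a ligand of the pathway, was at 0.523-fold (0.343 to 0.786) over all cells and at 0.831-fold (0.456 to 1.57) over cells with few leukocyte UMIs.

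Stress-response genes went both ways. Of 16 immediate early genes 3 were higher, 5 lower and the median was -0.37; over cells with few leukocyte UMIs 4 were higher, none lower and the median was 0.44. Egr1, an immediate early transcription factor, stood at 1470 CPM in double knockout cells, at 3449 CPM in Apoe knockout cells with 2 or more leukocyte UMIs and at 1579 CPM in those with fewer. Junb, an AP-1 subunit, stood at 922 CPM in double knockout and 449 CPM in Apoe knockout cells (2.05-fold, 1.64 to 2.58) and was higher on both counts, as was Ier3. Ier3 stood at 838 CPM in double knockout and 303 CPM in Apoe knockout cells of cluster 9, and at 832 CPM in double knockout and 268 CPM in Apoe knockout cells of the smooth muscle class. Of 13 heat shock genes 2 were higher, 6 lower and the median was -0.16, against 2 higher, 2 lower and a median of 0.12 over cells with few leukocyte UMIs. Hspa5, the chaperone of the endoplasmic reticulum, was 2.13-fold (1.80 to 2.52) higher, and 1.90-fold (1.50 to 2.42) over cells with few leukocyte UMIs. Hspa1b, an inducible chaperone of the cytosol, stood at 501 CPM in double knockout cells, at 2258 CPM in Apoe knockout cells with 2 or more leukocyte UMIs and at 554 CPM in those with fewer. Hspa1a and Hspa1b are near-identical copies whose reads may be split between them, so their single values are uncertain.

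The knocked-out genes were sparse in the cluster. Epn1 had 2 UMIs in double knockout and 9 UMIs in Apoe knockout cells, and Epn2 had 25 UMIs or 99.3 CPM in double knockout and 20 UMIs or 74.9 CPM in Apoe knockout cells (1.33-fold, 0.707 to 2.52). Neither met the rule, and 3' tags need not read a deleted exon, so these values check nothing about the deletion. In the epsin and clathrin list 1 of 10 genes was higher, 1 lower and the median was 0.20, which is near the shares over all genes (7.2% higher and 8.79% lower). Over cells with few leukocyte UMIs 1 was higher, none lower and the median was 0.14. The clathrin light chain gene Clta stood at 282 CPM in double knockout and 184 CPM in Apoe knockout cells (1.54-fold, 1.05 to 2.26), or 1.48-fold without 1 cell that held 3 of its UMIs. The adaptor gene Picalm stood at 219 CPM in double knockout and 333 CPM in Apoe knockout cells (0.656-fold, 0.460 to 0.928).

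Some of these ratios differed from those of the smooth muscle class of the same libraries and others did not. The differences given here are over all cells of cluster 9, with the Apoe knockout cells of 2 or more leukocyte UMIs included. The log2 ratio in cluster 9 was above that in the class by at least 1, with a counting interval above 0, for 69 of 4063 genes (1.7%) and below it for 159 (3.91%). Among genes with at least 100 UMIs the 5 above it were Cytl1, by 1.33 (1.00 to 1.66), the basement membrane gene Tinagl1, the Golgi gene Golim4, the calcium-binding S100a13 and the mitochondrial mt-Nd4l, by 1.20 (0.696 to 1.70). Those below it included Cldn5, by -3.73 (-6.15 to -1.31), Lum, by -2.38, Col1a1, by -1.87, and Egfl7, by -1.34. Over cells with under 2 leukocyte UMIs Cytl1, Col1a1 and Egfl7 did not meet the rule between the genotypes in cluster 9, while Cldn5 and Lum did. The differences named for these genes thus depend on which Apoe knockout cells are counted. Cldn5 was 2.94-fold higher in the double knockout in cluster 9, while the smooth muscle class had 6.64 CPM in double knockout and 0.116 CPM in Apoe knockout cells. These are 37 UMIs in double knockout cells, 16 of them in cluster 15, and 1 UMI in Apoe knockout cells, which is under the floor of 3 UMIs. Tinagl1 stood at 274 CPM in double knockout and 142 CPM in Apoe knockout cells of cluster 9, against 147 CPM in double knockout and 167 CPM in Apoe knockout cells of the smooth muscle class. Golim4 stood at 338 CPM in double knockout and 157 CPM in Apoe knockout cells of cluster 9, against 221 CPM in double knockout and 218 CPM in Apoe knockout cells of the class.

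The cluster made up 5.23% (4.65 to 5.85%) of the double knockout and 3.95% (3.21 to 4.81%) of the Apoe knockout library. The order turned once cells below 1000 UMIs or with 10% or more of mitochondrial UMIs were left out, when the cluster was 3.27% of the double knockout and 4.73% of the Apoe knockout library. Another 25 cells carried the cluster number 9 in other classes, 22 of them in the smooth muscle class, and were left out.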

How the data were processed

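Single-cell RNA sequencing covered 2 aortic libraries, 1 per genotype, with 10x droplets and 3' tags per the labels' protocols. The submitters' processing notes name Cell Ranger, Seurat and the mm10 build, with no versions. The deposited count table holds UMI counts per gene and cell, not normalized by the authors; 10345 deposited cells include 2428 identical second copies, which were dropped, leaving 7917 cells and 14714 genes. The mitochondrial fraction, percent and score columns of the deposited metadata were read only as the authors gave them, as were the other columns of classes and clusters.

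UMIs were summed over cells and divided by the cells' total to give CPM. Ratios carry exact conditional binomial intervals, shares Clopper-Pearson intervals, and levels exact Poisson intervals, all at 95% and for counting error only. Genes needed 20 UMIs in cluster 9 over both libraries; a group with 0 UMIs was set to a floor of 3 UMIs. The difference from the smooth muscle class used a Wald interval with 0.5 added to each sum. Leukocyte UMIs per cell were summed over the macrophage and the T and NK cell lists. Total UMIs were 6853185 in the double knockout and 13304762 in the Apoe knockout library. Thinning drew UMIs without replacement with a fixed seed. Scripts were tested on simulated data and used Python 3.11.15, NumPy 2.4.6, SciPy 1.17.1, pandas 2.3.3 and matplotlib 3.10.9. Promoter sequences and gene coordinates are RefSeq's, on GRCm38.p6; all 6 markers matched the annotation, and Vwf and Egfl7 are shown without sequence.

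The cluster, the gene lists and the tests were chosen with earlier results of these data known. Genes were named by rank of the ratios (12 highest and 12 lowest, 25 leading genes, at least 100 UMIs), by being among the 6 members of a list with the most UMIs, or as markers; Irf1, Junb, Cdh5, Klf2, Ccl2, Ecscr, Emcn, Podxl, Jam2, Entpd1, mt-Nd4l and the genes set against cluster 19 were also named, after their values were seen. Of the 25 leading genes, 1 is not reported here. Alternatives were a stricter cell filter, thinning, other gene filters and fold limits, other scaling, and leaving out cells by leukocyte UMIs, total UMIs or endothelial UMIs, or for each named gene the cell of 1 library with most of its UMIs.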

Additional observations from a re-analysis of the deposited data

Results flagged for a closer look

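Ctla2a, which encodes a cysteine protease inhibitor, had the lowest difference between the genotype ratio of cluster 9 and that of the smooth muscle class, at -7.91 on the log2 scale. In cluster 9 it stood at 79.5 CPM in double knockout and 891 CPM in Apoe knockout cells, whereas in the smooth muscle class it stood at 26.5 CPM in double knockout and 1.16 CPM in Apoe knockout cells. The ratio ran in opposite directions in these populations, and with 1 library per genotype the difference was not tested. In the Apoe knockout library 234 of the cluster's 238 Ctla2a UMIs were in 1 cell of 21998 UMIs, and without the cells over 5000 UMIs the log2 ratio in cluster 9 was 2.16. That value rests on 20 double knockout and 4 Apoe knockout UMIs, and 14 of the 20 were in 1 double knockout cell. Dixon's rule was not applied because no group held 4 libraries.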

How the results depend on the processing

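No paired analysis was possible because each genotype had 1 library. Leaving out mitochondrial and ribosomal protein genes, or centring on the median gene, changed no call among the 52 genes and 25 lists. The counts of genes below run in the order higher in the double knockout, lower in it, above the other cells, then ratio above and below that of the smooth muscle class, where they moved. Thinning to 1000 UMIs gave 189, 174, 133 and 48 (below the class), and thinning to 500 gave 118, 203, 93 and 18 (above the class). A minimum of 100 UMIs gave 99, 113, 45, 5 and 11, a minimum of 1 UMI gave 135 above and 281 below the class, and a ratio of at least 2 gave 187 higher and 238 lower. The strict cell filter, which kept 58 double knockout and 93 Apoe knockout cells, gave 152 above and 85 below the class and a double knockout share of 3.27%, and counting clusters 9 and 19 together gave a share of 6.45%. Under 2 leukocyte UMIs the count below the class was 257, and with cells over 5000 UMIs also left out it was 296, with 148 genes higher; cells with at least 5 endothelial core UMIs per 1000, a limit chosen after seeing the data as was that of 5000 UMIs, gave 119 above and 270 below. The endothelial core median was -0.14, -0.62 and 0.13 in these 3 sets, and the arterial median -0.73 in the second.

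Signs turned in the following log2 ratios, and the cause was not tested. Under the strict cell filter Cxcl1 was at 0.39 and Edn1 at 0.088, and after thinning to 1000 UMIs Edn1 was at 0.26, Picalm at 0.035 and Ctla2a at 2.13, the last also at 2.16 without cells over 5000 UMIs and 2.28 without the Apoe knockout cell with most of its UMIs, an alternative added after seeing the data. Under 2 leukocyte UMIs Cavin2 was at -0.047, Cytl1 at -0.0064, Gja4 at -0.15, Cxcl1 at 2.00 and Picalm at 0.044. With the cells over 5000 UMIs also left out, Cavin2 was at -0.83, Cgnl1 at -0.98, Cytl1 at -0.73, Egfl7 at -0.59, Gja4 at -0.92, H2-K1 at -0.34, Icam1 at -0.37, Notch1 at -0.74, Pecam1 at -0.65, S1pr1 at -0.11, Tinagl1 at -0.067, Vcam1 at -0.19, Vwf at -0.22, Egr1 at 0.24, Hspa1b at 0.30, Id2 at 0.067 and Picalm at 1.26, and the list medians of interferon and MHC class I, leukocyte adhesion and venous genes were -0.12, -0.44 and -0.47. Smaller list medians turned there too: basement membrane 0.56, cell junctions -0.74, caveolae -0.47, angiopoietin and VEGF -0.84, smooth muscle 1.17 with 9 of 13 genes higher, mesenchymal transition 0.43, flow -0.25, haemostasis -0.08, capillary -0.51, immediate early 0.35, heat shock 0.30, pericyte 1.09, and BMP and TGF-beta 0.07. Over cells rich in endothelial core UMIs Col1a2 was at 0.18, Cxcl1 at 0.48, Egr1 at 0.88, Hspa1b at 0.41, Id2 at 0.73 and Picalm at 0.15. The cycling median was 0.035 and 0.43 after thinning to 1000 and 500 UMIs, 0.35 without cells over 5000 UMIs, and 0.39 without these and leukocyte-rich cells. Of the 51 or 52 genes compared in each setting, 23 kept their call under 2 leukocyte UMIs, 34 after thinning to 500 and 47 without cells over 5000 UMIs. The depth of the smallest sets limits these values: the Apoe knockout cells with few leukocyte UMIs held 95607 UMIs, and 44513 without the 3 largest cells.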

Other observations

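Haemoglobin transcripts stood out in the double knockout cells of cluster 9. The globin genes summed to 172 UMIs there, or 683 CPM (585 to 794), and were found in 23 of 287 cells (8.01%), with at most 26 UMIs in 1 cell. The next highest double knockout cluster was cluster 1, at 238 CPM (203 to 276), and cluster 19, another cluster of the endothelial class, had 0 UMIs in 67 cells. In the 96 Apoe knockout cells of cluster 9 they had 0 UMIs of 266983. The libraries differed outside the cluster too, with 55.6 CPM in the other double knockout cells and 3.91 CPM in the other Apoe knockout cells. For neither of the 2 globin genes measured did the genotype ratio of cluster 9 meet the rule of difference from the smooth muscle class. Whether these are transcripts of red blood cells was not tested.

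Genes of the cell cycle gave none of 6 higher and 4 lower in the double knockout, with a median log2 ratio of -2.05, and summed to 385 CPM in double knockout and 835 CPM in Apoe knockout cells; over cells with under 2 leukocyte UMIs the counts were the same and the median -3.12. Without the cells over 5000 UMIs the median was 0.35. The chondrocyte-like list gave 1 of 5 higher and 3 lower, and none higher and 3 lower over cells with few leukocyte UMIs; it shares Cytl1 with the arterial list, and summed to 3497 CPM in double knockout and 2319 CPM in Apoe knockout cells of cluster 9, against 162 CPM in the other double knockout cells and 2685 CPM in the other Apoe knockout cells. Venous genes gave 2 of 4 higher and none lower, with a median of 0.92, but none called and a median of 0.30 over cells with few leukocyte UMIs. Angiopoietin and VEGF receptors and ligands gave 2 of 7 higher and 1 lower, with a median of 0.36, but none higher, 2 lower and a median of -0.17 over cells with few leukocyte UMIs. Of 4 pericyte genes 1 was lower and none higher, against 1 higher and none lower over cells with few leukocyte UMIs.

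The 3 largest Apoe knockout cells, with 21998, 16418 and 12678 UMIs, held 19.1% of the UMIs of that library's cluster. They held 177, 47 and 44 endothelial core UMIs and 0, 1 and 0 leukocyte UMIs. The largest double knockout cell, with 9526 UMIs, held 140 endothelial core UMIs and 1 leukocyte UMI, and 30 of the 35 Cxcl2 UMIs of that library's cluster.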
